A study of Mus musculus with 18 samples.

Results

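The genes that build cholesterol and fatty acids, together with the regulators that set their transcription, were followed through the development of invariant natural killer T (iNKT) cells in the mouse thymus. iNKT cells are T cells with a semi-invariant receptor that recognises lipids held by CD1d. The set was defined by name: 32 genes of the sterol pathway, the fatty acid pathway and their SREBP regulators. Of these, 29 had a probe set that carried only that symbol, and 27 of the 29 passed the filter on dim probe sets and were tested among 13034 genes in all. Acat2 had no probe set of its own, and Idi1 and Scd2 lay only on probe sets shared with other symbols, so none of these 3 was given a value. Scd1 lay above its array's median on 0 of 18 arrays and Fads2 on 2, and neither was tested.

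RNA was measured on 18 MoGene-2_0 arrays, 3 for each of 6 groups of sorted thymic iNKT cells from C57BL/6 mice, and this number of arrays limits the precision of every value. WT mice were compared with Cd4CreMst1fl/fl mice (Mst1KO), in which Cre recombinase driven by Cd4 removes Mst1 (gene symbol Stk4), a kinase of the Hippo pathway. The Cd4 promoter is active before the iNKT lineage branches off, so the deletion is not limited to iNKT cells. All cells bound the PBS57-loaded CD1d tetramer and lacked CD24. Stage S1 was negative for CD44 and NK1.1, S2 was positive for CD44 only, and S3 was positive for both. The labels do not give the animals' ages and do not tie a replicate number to 1 animal. The p-values therefore reflect the spread between these samples, some of which may be technical. Stk4 was 0.29 ± 0.11 lower (log2 difference ± SE) in S1 cells of Mst1KO, 0.35 ± 0.11 lower in S2 cells and 0.39 ± 0.11 lower in S3 cells. The Mst1KO arrays lay below the WT arrays at each stage, with limma adjusted p = 0.34, 0.173 and 0.0767, so the label was borne out in direction but not past the threshold. The sources used here do not state whether the probes cover the deleted part. All 6 T cell and iNKT cell markers were measured, with a mean level per array of 10.8 to 11.2. From S2 to S3, 1 of the 6 (Cd3e) rose and 3 (Zbtb16, Cd5 and Cd28) fell in WT, and 1 (Zbtb16) fell in Mst1KO, by 1.32 and 0.90 on the log2 scale for Zbtb16, the transcription factor that directs the lineage.

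Cells make cholesterol from acetyl-CoA through mevalonate, farnesyl pyrophosphate and squalene, and make fatty acids from the same acetyl-CoA through malonyl-CoA. The SREBP transcription factors, which Srebf1 and Srebf2 encode, switch on most genes of both paths. SCAP escorts SREBP from the endoplasmic reticulum to the Golgi for cleavage when sterols are low, and INSIG proteins hold the SCAP and SREBP complex back when sterols are plentiful. In T cells these paths are known for supplying membrane to dividing cells, and the early stages of iNKT development are the dividing ones.

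Values are log2 expression as deposited, and differences are log2 differences ± SE with 3 arrays per group, from 1 limma model fitted to all 18 arrays. A gene was called at a Benjamini-Hochberg adjusted p under 0.05 over all 13034 genes. Over the 7 comparisons of groups, 189 member tests gave 12 calls on 10 genes (6.35%, against 8.03% of the tests of all genes), with folds from 1.22 to 1.64, and 17 of the 27 tested members were never called. For 16 members the 6 group means spanned less than 0.5 log2 units, and 1 member, Insig1, spanned more than 1 (1.15). The mean level of the 27 genes per array ran from 7.19 to 7.47.

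**Figure D1:**
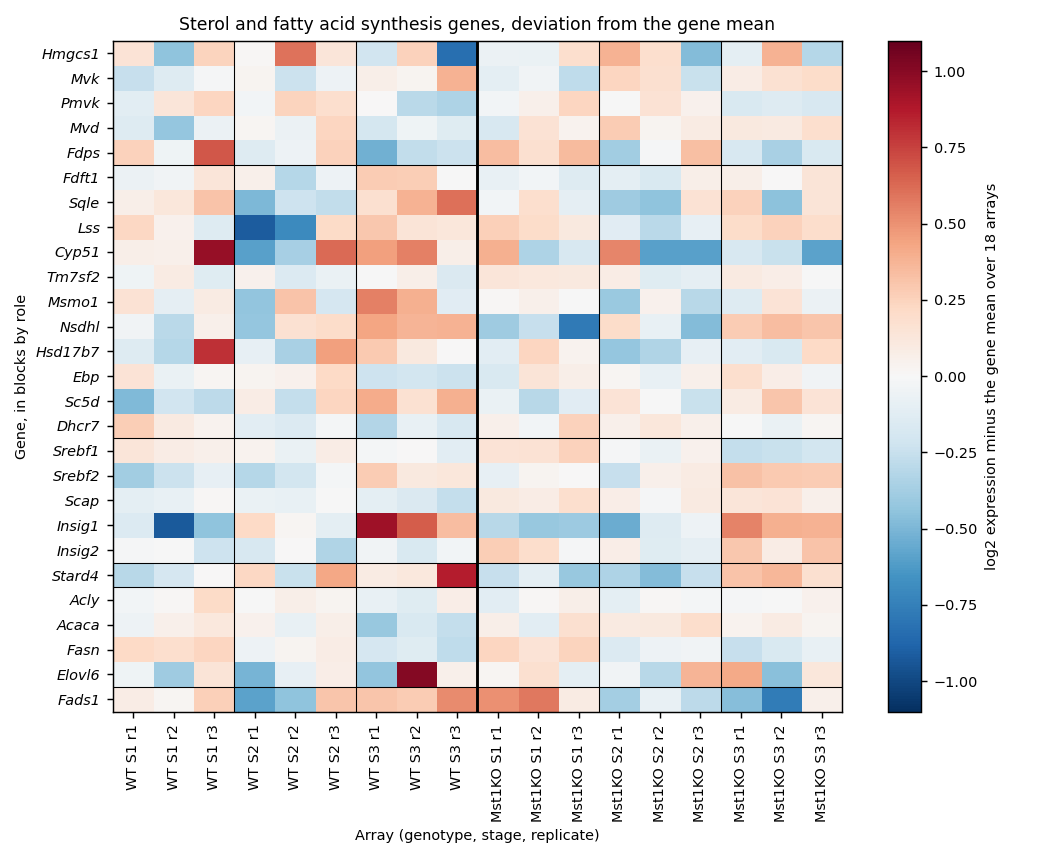
Each row is 1 of the 27 tested members, in order of pathway role, and each column is 1 of the 18 arrays. Colour gives the log2 level minus that gene's mean over all arrays. Most rows are pale throughout, and the clearest block is the S3 arrays of Insig1, which lie above the S1 arrays in both genotypes.

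The step from S2 to S3, where iNKT cells gain NK1.1, held most of the calls. In WT, 7 of 27 members were called (25.9%), 4 higher and 3 lower, against 23.6% of all genes tested (10.4% higher and 13.2% lower), so the members were called about as often as any gene. In Mst1KO 3 of 27 were called (11.1%), all higher, against 17.2% of all genes (8.01% higher and 9.18% lower). Without WT S3 replicate 1 the WT count was 2, and without WT S2 replicate 2 or 3 it was 4. Those 4 took in a member not called on all arrays: Msmo1 without S2 replicate 2, and Fads1 without S2 replicate 3. Without Mst1KO S3 replicate 1 the Mst1KO count was 0, and without Mst1KO S2 replicate 1, S2 replicate 2 or S3 replicate 2 it was 1. Without S2 replicate 1 all 3 of the Mst1KO calls were lost, and the 1 counted was Nsdhl, not called on all arrays. The median member difference was 0.13 in WT and 0.07 in Mst1KO. Whatever its sign, the median size was 0.30 for members and 0.19 for all genes in WT, and 0.14 and 0.18 in Mst1KO. In WT 12 members (44.4%) had an unadjusted limma p under 0.05, against 34.3% of all genes. In Mst1KO 6 did (22.2%), against 29.7%. The 95% confidence interval stayed within 2-fold for 21 of 27 members (77.8%) in WT, against 88.4% of all genes, and for 25 (92.6%) in Mst1KO, against 90%. The difference between genotypes in this step was called for 0 of 27 members (0.368% of all genes), with 2 at an unadjusted p under 0.05 (7.41%, against 11.2% of all genes). The interval of that difference stayed within 2-fold for 22 of 27. Of the members, 22 (81.5%) had the same sign in both genotypes, against 70.3% of all genes. By size the WT and Mst1KO differences correlated less over members (Pearson r = 0.55) than over all genes (0.81). No array is shared between these 2 steps.

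Insig1, which encodes the sterol-sensitive anchor of SCAP and is itself an SREBP target, had the widest range of any tested member. Its 3 WT arrays read 7.15, 6.37 and 6.86 at S1, then 7.52, 7.32 and 7.19 at S2, then 8.23, 7.96 and 7.63 at S3. The Mst1KO arrays read 6.99, 6.88 and 6.89 at S1, then 6.75, 7.15 and 7.24 at S2, then 7.84, 7.69 and 7.68 at S3. Every S3 array lay above every S2 array of its genotype. Insig1 rose from S2 to S3 by 0.60 ± 0.18 in WT (1.52-fold, limma adjusted p = 0.0226) and by 0.69 ± 0.18 in Mst1KO (1.61-fold, adjusted p = 0.0139). The genotypes differed in this rise by 0.09, with a 95% confidence interval from -0.46 to 0.63. The WT call was lost without S2 replicate 2, S2 replicate 3, S3 replicate 1 or S3 replicate 2 (adjusted p = 0.0602, 0.0877, 0.111 and 0.0586). The Mst1KO call was lost without S2 replicate 1 or S3 replicate 1 (adjusted p = 0.072 and 0.0571).

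Srebf2, the gene for the SREBP that mainly drives cholesterol synthesis, showed the same direction with a smaller size. In WT it read 8.28, 8.43 and 8.57 at S1, then 8.35, 8.46 and 8.64 at S2, then 8.94, 8.77 and 8.79 at S3. In Mst1KO it read 8.57, 8.69 and 8.67 at S1, then 8.41, 8.72 and 8.75 at S2, then 8.98, 8.95 and 8.94 at S3. In both genotypes the S3 arrays lay above all S1 and S2 arrays. Srebf2 rose from S2 to S3 by 0.35 ± 0.11 in WT (limma adjusted p = 0.0263) and by 0.33 ± 0.11 in Mst1KO (adjusted p = 0.0435). The WT call was lost without S2 replicate 1, S2 replicate 2 or S3 replicate 1 (adjusted p = 0.104, 0.0701 and 0.103), and the Mst1KO call was lost without any 1 of its arrays other than S2 replicate 3 (adjusted p 0.0513 to 0.192). Without Mst1KO S2 replicate 1 the Mst1KO value was 0.22. The Mst1KO call was also lost with no filter, with repeated quantile normalization and in a fit of only the groups compared (adjusted p = 0.0759, 0.0668 and 0.0895). The WT call was lost in a fit of only the groups compared (0.0888).

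**Figure D2:**
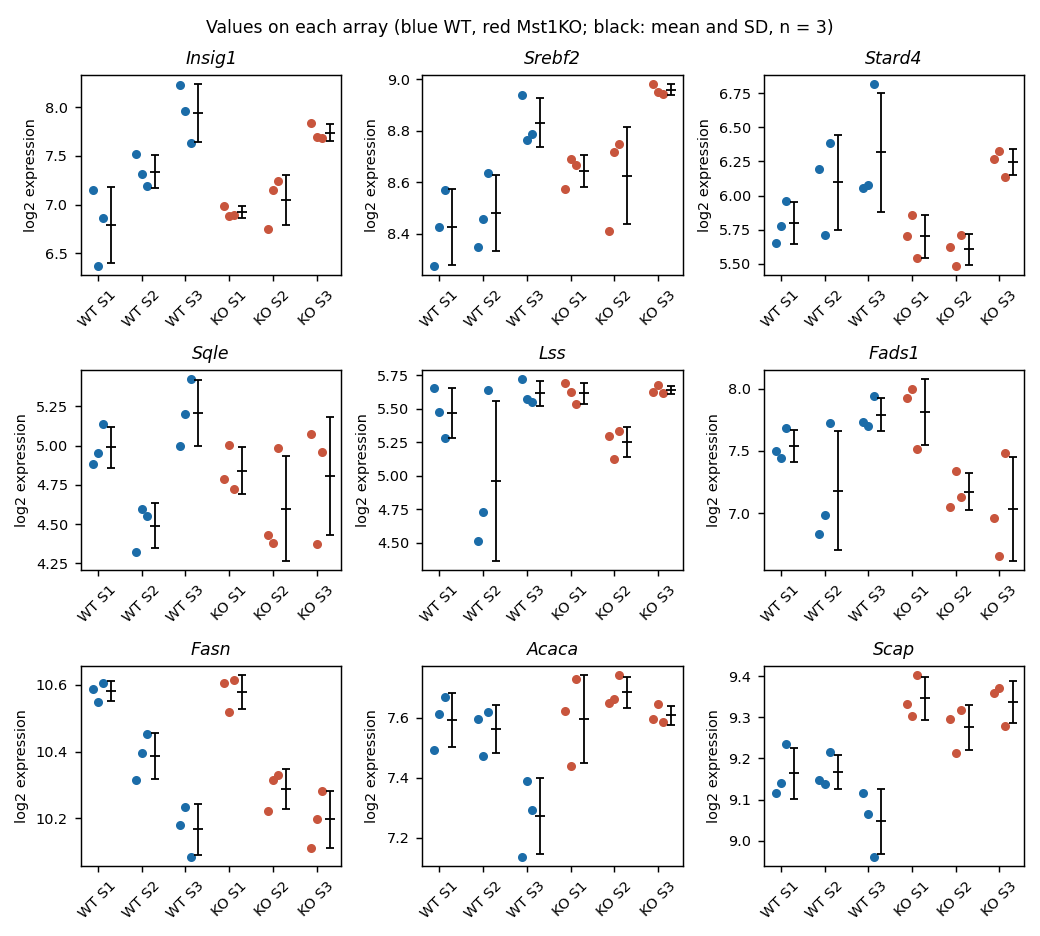
Log2 level of 9 members on each of the 18 arrays, with the 6 groups on the horizontal axis (blue WT, red Mst1KO, written KO) and the group mean and SD of 3 arrays in black; the vertical scale differs between panels and does not start at 0. Insig1 and Srebf2 lie higher at S3 than at S2 in both genotypes. At S3 the WT and Mst1KO arrays of Fads1, Acaca and Scap do not overlap. Of these only Scap was called between genotypes (limma adjusted p = 0.0675, 0.0596 and 0.0478).

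Insig1 and Srebf2 were the members called in the most comparisons, 2 each, and their promoters are shown with that of Hmgcs1, which was picked after its match was seen because, of the 25 members with a promoter window, it alone holds the searched sterol element. Each run is the 250 bases before the RefSeq transcription start in GRCm38.p6, on the plus strand, and capitals mark matches to TCACNCCAC (the sterol regulatory element) and to CCAAT (the NF-Y box, which reads ATTGG on the opposite strand).
Insig1, chr5:28071162-28071411: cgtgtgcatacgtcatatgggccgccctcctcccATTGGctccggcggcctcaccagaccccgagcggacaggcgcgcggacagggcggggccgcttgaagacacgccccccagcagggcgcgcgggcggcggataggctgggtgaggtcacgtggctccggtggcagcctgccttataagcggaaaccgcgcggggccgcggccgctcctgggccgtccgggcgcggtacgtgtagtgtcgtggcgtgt
Srebf2, chr15:82147019-82147268: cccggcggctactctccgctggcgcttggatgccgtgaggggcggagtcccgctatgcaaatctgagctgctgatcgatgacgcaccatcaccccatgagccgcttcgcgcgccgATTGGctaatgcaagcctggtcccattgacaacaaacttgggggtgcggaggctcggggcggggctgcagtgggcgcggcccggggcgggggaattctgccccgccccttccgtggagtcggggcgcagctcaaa
Hmgcs1, chr13:119690101-119690350: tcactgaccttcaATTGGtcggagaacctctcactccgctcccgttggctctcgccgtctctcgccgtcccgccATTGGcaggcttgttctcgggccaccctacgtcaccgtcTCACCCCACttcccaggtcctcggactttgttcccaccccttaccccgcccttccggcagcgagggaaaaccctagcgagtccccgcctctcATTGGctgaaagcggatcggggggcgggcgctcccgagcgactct
Over windows of 300 bases, which add 50 bases after the start, 25 members were matched by symbol to 33 windows. TCACNCCAC was found, on either strand, in 1 of the 25 members and in 1.44% of all genes with a window. CCAAT was found in 20 of 25 members and in 41.1% of all genes with a window, GGGCGG (the GC box) in 21 of 25 and 38.2%, and CACGTG (the E-box) in 5 of 25 and 8.09%. Matches can share letters, as do a pair of CCAAT matches on opposite strands in Fasn. Only these exact strings were searched (N is any base), so a site that departs from them was not counted. A match is a description of the sequence alone.

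Of the enzymes from squalene to cholesterol, 11 of 11 were tested, and 9 of the 11 had a positive S2 to S3 difference in WT and 9 of 11 in Mst1KO, with medians of 0.30 and 0.21. Of all genes tested, 49.9% had a positive difference in WT and 45.8% in Mst1KO. From S1 to S2 the same 11 went mostly the other way, with 8 negative in each genotype (medians -0.11 in WT and -0.17 in Mst1KO). In that earlier step 48.1% of all genes were positive in WT and 49.9% in Mst1KO. In WT, Sqle and Lss rose and Ebp fell, and none of the 11 was called in Mst1KO. Sqle encodes squalene epoxidase, the first oxygen-requiring step and a rate-limiting one. Its WT arrays read 4.89, 4.95 and 5.14 at S1, then 4.32, 4.60 and 4.55 at S2, then 5.0, 5.20 and 5.42 at S3. Its Mst1KO arrays read 4.79, 5.01 and 4.72 at S1, then 4.43, 4.38 and 4.98 at S2, then 5.08, 4.37 and 4.96 at S3. In WT the S2 arrays were the lowest and did not overlap with S3, whereas in Mst1KO the stages overlapped. The WT rise was 0.72 ± 0.18 (1.64-fold, limma adjusted p = 0.0085), and it stayed called when any 1 of its 6 arrays was left out (adjusted p 0.00912 to 0.0434). In Mst1KO the difference was 0.21 ± 0.18 (adjusted p = 0.496), and the genotypes differed in this step by -0.51 (interval -1.06 to 0.04, adjusted p = 0.481). Sqle is a dim gene, above the array median on 10 of 18 arrays and on none of the WT S2 arrays, so it passed the filter through the groups where it was high.

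Lss, which encodes lanosterol synthase and closes the sterol ring, rested on fewer arrays. It read 5.65, 5.47 and 5.28 in WT at S1, then 4.51, 4.73 and 5.64 at S2, then 5.72, 5.57 and 5.55 at S3. In Mst1KO it read 5.69, 5.63 and 5.53 at S1, then 5.30, 5.12 and 5.34 at S2, then 5.62, 5.68 and 5.62 at S3. The third WT S2 array lay at the level of S3, so the WT stages overlapped, while in Mst1KO every S2 array lay below every S3 array. Lss rose in WT by 0.65 ± 0.20 (limma adjusted p = 0.0226) and differed in Mst1KO by 0.39 ± 0.20 (adjusted p = 0.204). The WT call was lost without S2 replicate 1, S2 replicate 2 or S3 replicate 1 (adjusted p = 0.118, 0.0983 and 0.0754) and in a fit of only the groups compared (0.144), and without S2 replicate 1 the value was 0.43. Without the WT S2 replicate 3 array the WT rise was 0.99 (adjusted p = 1.68e-05). Without that array the S1 to S2 difference in WT also passed, at -0.85 (adjusted p = 0.000694), as did Mst1KO over WT at S2, at 0.63 (adjusted p = 0.0329). Lss was above the array median on 16 of 18 arrays.

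Ebp encodes the sterol isomerase of the later steps. It read 9.47, 9.50 and 9.66 in WT at S2 and 9.22, 9.24 and 9.21 at S3, against 9.47, 9.37 and 9.50 and then 9.63, 9.52 and 9.41 in Mst1KO. The WT S3 arrays were the lowest of all groups. Ebp fell in WT by 0.32 ± 0.10 on the log2 scale (limma adjusted p = 0.0241), a call lost without S2 replicate 3, S3 replicate 1 or S3 replicate 3 (adjusted p = 0.103, 0.0606 and 0.061) and in a fit of only the groups compared (0.0752). In Mst1KO the difference was 0.07 ± 0.10 (adjusted p = 0.684).

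The other 8 enzymes of this segment were not called in this step. Nsdhl, a sterol dehydrogenase of the demethylation step, differed by 0.42 ± 0.18 in WT and 0.43 ± 0.18 in Mst1KO (limma adjusted p = 0.111 and 0.12), with S3 above S2 on every array in both genotypes. Sc5d, the sterol desaturase, differed by 0.30 ± 0.13 and 0.22 ± 0.13 (adjusted p = 0.119 and 0.31). Fdft1, the squalene synthase, differed by 0.28 ± 0.11 and 0.14 ± 0.11 (adjusted p = 0.0721 and 0.429). Msmo1, the methyl sterol oxidase, differed by 0.37 ± 0.19 and 0.21 ± 0.19 (adjusted p = 0.168 and 0.503). With 1 array left out some of these passed. Nsdhl did so in Mst1KO without S2 replicate 1 (limma adjusted p = 0.0469). In WT, Msmo1 passed without S2 replicate 2 or S3 replicate 3, and Fdft1 without S2 replicate 1 or S3 replicate 3. Hsd17b7, Tm7sf2 and Dhcr7, which act in the reductions of the ring and side positions, differed by at most 0.26 in size in either genotype. Cyp51, the lanosterol demethylase, spread most among its replicates, with WT S2 arrays at 4.79, 5.03 and 6.01 and Mst1KO S2 arrays at 5.93, 4.79 and 4.79. Its S2 to S3 difference was 0.47 ± 0.34 in WT and -0.12 ± 0.34 in Mst1KO, within the spread between replicates. Cyp51 was above the array median on 14 of 18 arrays.

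**Figure D3:**
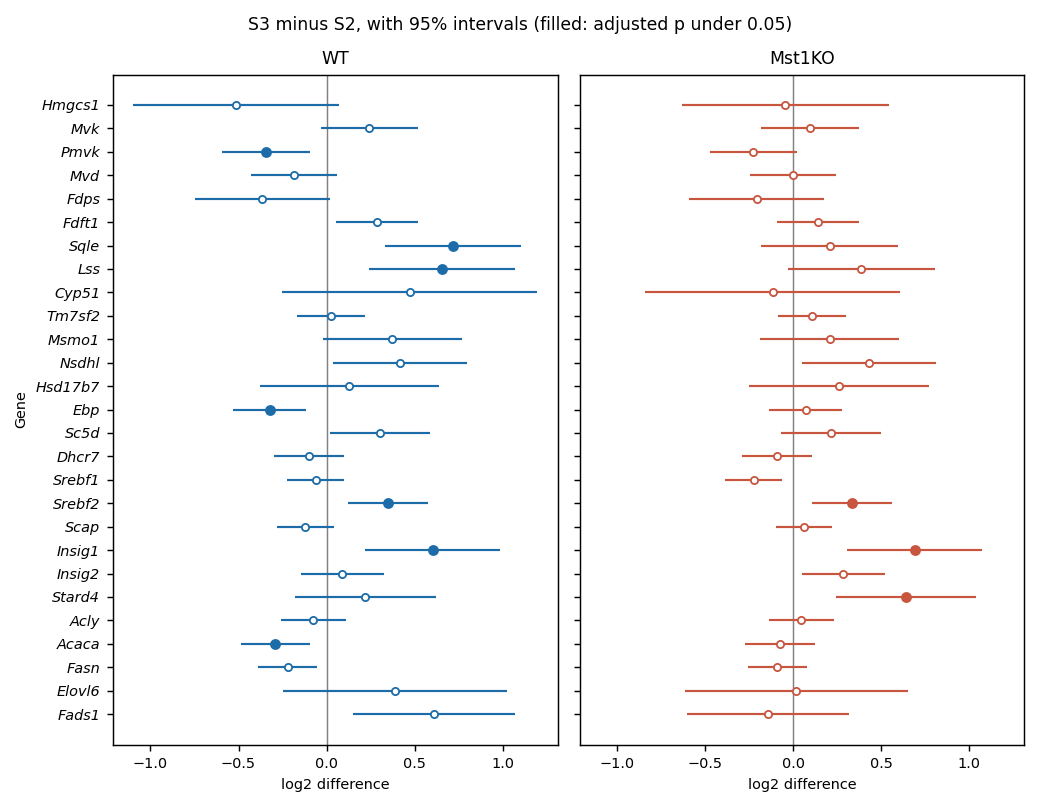
Log2 difference of S3 minus S2 for each of the 27 tested members in WT and in Mst1KO, with the 95% confidence interval from limma; filled points were called. Sqle, Lss, Insig1 and Srebf2 lie to the right in WT, Pmvk, Ebp and Acaca to the left, and most intervals cross 0.

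Of 7 listed enzymes that make and use mevalonate, 5 were tested. Of these 5, 4 had a negative S2 to S3 difference in each genotype (medians -0.34 in WT and -0.04 in Mst1KO), and 1 was called, in WT. Pmvk, the phosphomevalonate kinase, read 7.01, 7.29 and 7.23 in WT at S2 and 7.05, 6.74 and 6.70 at S3. The first S3 array lay above the first S2 array, so the stages overlapped. Pmvk fell in WT by 0.34 ± 0.12 on the log2 scale (limma adjusted p = 0.0423), and the call was lost without S2 replicate 2, S2 replicate 3, S3 replicate 2 or S3 replicate 3 (adjusted p = 0.146, 0.115, 0.13 and 0.153). It was also lost under 6 of 8 other settings, among them centring of the arrays (0.0946), no filter (0.072) and a fit of only the groups compared (0.139). In Mst1KO the difference was -0.23 ± 0.12 (adjusted p = 0.21). Fdps, which makes farnesyl pyrophosphate, differed by -0.36 ± 0.18 and -0.21 ± 0.18 (adjusted p = 0.17 and 0.488). Hmgcs1, the synthase that makes the substrate for mevalonate, read 6.81, 7.40 and 6.93 in WT at S2 and 6.58, 7.05 and 5.97 at S3. The 2 stages overlapped, and the difference of -0.51 ± 0.28 did not pass (adjusted p = 0.207). In Mst1KO Hmgcs1 differed by -0.04 ± 0.28. Mvk and Mvd, the kinase and decarboxylase of mevalonate, differed by at most 0.24 in size in either genotype.

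Stard4 encodes a soluble carrier that moves cholesterol between membranes and is an SREBP target. It read 6.19, 5.71 and 6.39 in WT at S2 and 6.05, 6.08 and 6.82 at S3. In Mst1KO it read 5.62, 5.48 and 5.71 at S2 and 6.27, 6.33 and 6.14 at S3. The Mst1KO stages were apart and the WT stages overlapped. Stard4 rose in Mst1KO by 0.64 ± 0.19 (1.56-fold, limma adjusted p = 0.0263) and differed in WT by 0.22 ± 0.19 (adjusted p = 0.453). The genotypes differed in this step by 0.42 (interval -0.14 to 0.98, adjusted p = 0.596). The Mst1KO call was lost without S2 replicate 1, S2 replicate 2, S3 replicate 1 or S3 replicate 2 (adjusted p = 0.0592, 0.0914, 0.0757 and 0.085).

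Among the genes of fatty acid synthesis, Fasn and Acaca lay lowest at WT S3. Acaca encodes the acetyl-CoA carboxylase that commits carbon to fatty acids. It read 7.60, 7.47 and 7.62 in WT at S2 and 7.14, 7.39 and 7.29 at S3, against 7.65, 7.66 and 7.74 and then 7.60, 7.64 and 7.58 in Mst1KO. The WT S3 arrays lay below every other array of the gene. Acaca fell in WT by 0.29 ± 0.09 on the log2 scale (limma adjusted p = 0.0317), a call lost without S2 replicate 1, S2 replicate 3, S3 replicate 1 or S3 replicate 3 (adjusted p = 0.0801, 0.1, 0.14 and 0.0598). It was also lost after centring of the arrays (0.0758), with no filter (0.0616) and in a fit of only the groups compared (0.131). In Mst1KO the difference was -0.08 ± 0.09 (adjusted p = 0.637).

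Fasn, the fatty acid synthase, gave nearly the same level on replicate arrays. Its WT arrays read 10.59, 10.55 and 10.61 at S1, then 10.31, 10.40 and 10.45 at S2, then 10.18, 10.23 and 10.08 at S3. Its Mst1KO arrays read 10.60, 10.52 and 10.61 at S1, then 10.22, 10.31 and 10.33 at S2, then 10.11, 10.20 and 10.28 at S3. The S1 arrays were the highest in both genotypes, with no overlap with S2. Fasn fell from S1 to S2 in Mst1KO by 0.29 ± 0.08 on the log2 scale (limma adjusted p = 0.0347). This call was lost when any 1 of the 6 arrays was left out (adjusted p 0.0553 to 0.131), with no filter (0.0735) and in a fit of only these groups (0.125). From S2 to S3 in WT the difference was -0.22 ± 0.08 (adjusted p = 0.0518). Acly, which supplies the acetyl-CoA, spanned 0.11 log2 units between its lowest and highest group mean. Elovl6, the elongase of palmitate, had 1 WT S3 array at 8.21 beside 6.77 and 7.26 and was not called in any comparison.

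From S1 to S2, where the cells gain CD44, 0 of 27 members were called in WT against 3.84% of all genes. In WT 7 members had an unadjusted p under 0.05 (25.9%, against 16.4% of all genes). In Mst1KO, Fasn was the 1 member called (3.7%) against 6.67% of all genes (2.9% lower). The genotypes differed in this step for 0 of 27 members (0.0153% of all genes), with 0 at an unadjusted p under 0.05 (against 6.77% of all genes). The median member difference was -0.04 in WT and -0.02 in Mst1KO. Insig1 differed by 0.55 in WT (limma adjusted p = 0.122). The interval stayed within 2-fold for 26 of 27 members in both genotypes.

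Between genotypes, members were seldom called. At S1, 0 of 27 were called against 0.33% of all genes, and at S2, 0 of 27 against 1.17%. At each of these stages 1 member (3.7%) had an unadjusted p under 0.05, against 11.2% of all genes at S1 and 13.4% at S2. The interval stayed within 2-fold for 26 members at S1, 27 at S2 and 25 at S3, where those of Fads1 and Cyp51 reached beyond it. At S3, 1 of 27 was called (3.7%), higher in Mst1KO, against 3.4% of all genes (2.35% higher), and 8 members (29.6%) had an unadjusted p under 0.05, against 16.7% of all genes. The median size of the difference at S3, whatever its sign, was 0.18 for members and 0.13 for all genes.

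The member called at S3 was Scap, the sterol sensor that escorts SREBP. Its WT arrays read 9.12, 9.14 and 9.23 at S1, then 9.15, 9.14 and 9.22 at S2, then 9.12, 9.07 and 8.96 at S3. The Mst1KO arrays read 9.33, 9.30 and 9.40 at S1, then 9.30, 9.21 and 9.32 at S2, then 9.36, 9.37 and 9.28 at S3. The S1 arrays of WT and Mst1KO were apart, as were the S3 arrays, and the S2 arrays overlapped. Scap was higher in Mst1KO at S3 by 0.29 ± 0.08 (1.22-fold, limma adjusted p = 0.0478), and by 0.18 at S1 and 0.11 at S2, where it was not called. The call was lost when any 1 of the 6 arrays was left out (adjusted p 0.0653 to 0.153), after centring each array on its median (0.1), with no filter (0.0975), after repeated quantile normalization (0.092) and in a fit of only these groups (0.182). A dimmer Scap probe set gave a difference of 0.08, and with both probe sets averaged the adjusted p was 0.241.

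Of the members not called between genotypes at S3, Acaca and Fads1 came nearest to the threshold. Fads1 encodes the delta-5 desaturase of polyunsaturated fatty acids. It read 7.50, 7.44 and 7.69 in WT at S1, then 6.83, 6.98 and 7.72 at S2, then 7.73, 7.70 and 7.94 at S3. In Mst1KO it read 7.93, 8.0 and 7.51 at S1, then 7.05, 7.34 and 7.13 at S2, then 6.96, 6.66 and 7.48 at S3. At S3 every Mst1KO array lay below every WT array. The Fads1 difference at S3 was -0.76 ± 0.22 (limma adjusted p = 0.0675), and the genotypes differed in the S2 to S3 step by -0.75 (interval -1.40 to -0.10, adjusted p = 0.354). Without Mst1KO S3 replicate 3 the S3 difference was -0.98 (adjusted p = 0.0339), and after centring each array on its median it passed at adjusted p = 0.0461. The WT difference from S2 to S3 was 0.61 ± 0.22 (adjusted p = 0.0521), and without WT S2 replicate 3 it was 0.88 (adjusted p = 0.00454). Acaca was 0.34 ± 0.09 higher in Mst1KO than in WT at S3 on arrays that did not overlap, with adjusted p = 0.0596. Cyp51 and Sqle were -0.70 ± 0.34 and -0.40 ± 0.18 in Mst1KO against WT at S3 (adjusted p = 0.326 and 0.277), and for Cyp51 the arrays were apart.

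The remaining regulators, Srebf1 and Insig2, were not called in any comparison. Srebf1, whose products mainly drive fatty acid synthesis, fell short of the threshold from S2 to S3 in Mst1KO at -0.22 ± 0.08 (limma adjusted p = 0.0519) and was -0.19 ± 0.08 in Mst1KO against WT at S3 (adjusted p = 0.208), with no overlap of the S3 arrays. Insig2, the second anchor of SCAP, was 0.31 ± 0.11 in Mst1KO against WT at S3 (adjusted p = 0.157), with no overlap. The desaturases Scd1 and Fads2 lay near background: Scd1 group means ran from 3.10 to 3.42 and Fads2 group means from 4.33 to 4.94.

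**Figure D4:**
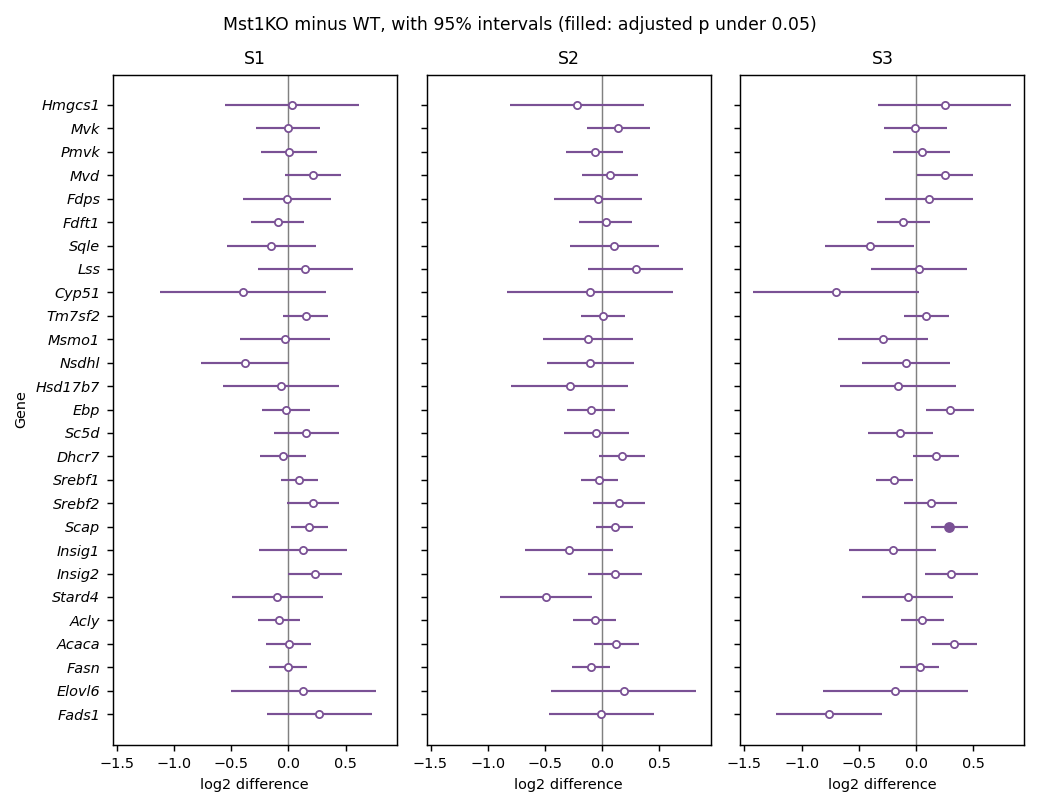
Log2 difference of Mst1KO minus WT for each of the 27 tested members at S1, S2 and S3, with the 95% confidence interval from limma; filled points were called. Scap at S3 is the 1 filled point, and Fads1 at S3 lies farthest left at -0.76.

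Genes around the core paths, taken from lists of related functions, were read from the same fits. Of 9 genes listed as other sterol synthesis enzymes 6 were tested, and from S2 to S3 in WT 0 rose and 2 fell. Acat1, on the list although it is the mitochondrial thiolase, fell by 0.73 on the log2 scale. Erg28, a scaffold of the demethylation complex, fell by 0.37. The Erg28 call was lost without any 1 of its arrays other than WT S2 replicate 1 (limma adjusted p 0.0677 to 0.199). In Mst1KO 0 of the 6 were called. Of 11 genes of SREBP processing and turnover 10 were tested, and 1 rose and 1 fell in each genotype. Sec24a, a subunit of the vesicle coat that carries SCAP and SREBP, rose by 0.42 ± 0.11 in WT and 0.56 ± 0.11 in Mst1KO (limma adjusted p = 0.00881 and 0.00153), and both calls held when any 1 array was left out. The gene that fell was Fbxw7, the ubiquitin ligase subunit that marks nuclear SREBP, in WT (by 0.37) and Rnf145, a ligase that targets SCAP, in Mst1KO (by 0.32). The Rnf145 call was lost without S2 replicate 2, S2 replicate 3 or S3 replicate 1 (adjusted p = 0.0737, 0.0676 and 0.0917).

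Of 25 other genes of fatty acid synthesis and elongation 17 were tested. From S2 to S3, 2 rose and 4 fell in WT, and 1 rose and 3 fell in Mst1KO. Elovl5, the elongase of polyunsaturated fatty acids, rose by 0.70 ± 0.11 in WT and 0.37 ± 0.11 in Mst1KO (limma adjusted p = 0.000114 and 0.0247). Acsl5, which activates long fatty acids, fell by 0.64 ± 0.08 and 0.32 ± 0.08 on the log2 scale (adjusted p = 2.04e-05 and 0.0116). The Mst1KO call of Elovl5 was lost without S2 replicate 1, S2 replicate 3, S3 replicate 1 or S3 replicate 2 (adjusted p = 0.106, 0.0693, 0.0912 and 0.0559), and that of Acsl5 without S3 replicate 1 (0.0538). Acss2, which makes acetyl-CoA from acetate, was the list member that separated the genotypes, higher in Mst1KO by 0.86 ± 0.15 at S1 and 0.76 ± 0.15 at S2 (adjusted p = 0.0199 and 0.0191). At S3 the Acss2 difference was 0.27 ± 0.15 (adjusted p = 0.397). The S1 call was lost without Mst1KO replicate 1, Mst1KO replicate 2, WT replicate 1 or WT replicate 3 (adjusted p = 0.122, 0.0672, 0.0535 and 0.0901). The S2 call was lost without Mst1KO replicate 2, Mst1KO replicate 3, WT replicate 1 or WT replicate 2 (adjusted p = 0.0652, 0.0549, 0.0572 and 0.0741).

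Sterol efflux genes and other targets of the LXR receptors moved in both directions. Of 10 listed 8 were tested, and from S2 to S3, 2 rose and 3 fell in each genotype. Mylip, the ligase that degrades lipoprotein receptors, rose by 0.71 ± 0.09 in WT and 0.71 ± 0.09 in Mst1KO (limma adjusted p = 1.39e-05 and 2.58e-05). Lpcat3, a phospholipid acyltransferase, fell by 0.77 ± 0.10 and 0.88 ± 0.10 on the log2 scale (adjusted p = 1.45e-05 and 6.08e-06). Smpdl3a fell by 0.59 and 0.45 (adjusted p = 2.39e-05 and 0.000518), and its Mst1KO call was lost with its probe sets averaged (0.0968). Abca1, the cholesterol exporter, fell by 0.59 ± 0.16 and 0.65 ± 0.16, with higher adjusted p (0.0123 and 0.0094). The WT call of Abca1 was lost without S2 replicate 2 (adjusted p = 0.0626). Lpcat3 was more highly expressed in Mst1KO, by 0.49 ± 0.10 at S2 and 0.38 ± 0.10 at S3 (adjusted p = 0.0191 and 0.0379). The S2 call was lost without Mst1KO replicate 1, Mst1KO replicate 3 or WT replicate 3 (adjusted p = 0.0855, 0.0602 and 0.0799), and the S3 call without Mst1KO replicate 2 or 3 or WT replicate 1 or 2 (0.118, 0.141, 0.116 and 0.103). Of 16 genes of sterol uptake and transport 14 were tested, and Scarb1, a lipoprotein receptor, fell from S2 to S3 by 0.86 ± 0.14 in WT and 0.70 ± 0.14 in Mst1KO. In WT 3 of the 14 fell and 0 rose, and in Mst1KO 1 fell and 0 rose.

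Of 15 genes of esterification and storage 13 were tested. Plin3, a lipid droplet coat protein, fell from S2 to S3 by 1.32 in WT and 1.21 in Mst1KO on the log2 scale, and was higher in Mst1KO by 0.87 at S2 and 0.98 at S3 (limma adjusted p = 0.00855 and 0.00102). The S2 call was lost without Mst1KO replicate 1 (0.0561). Plin3 was 1 of 2 genes of this list that fell in each genotype; 0 rose in WT and 1 in Mst1KO. Of 14 genes of the isoprenoid branches 12 were tested, and at S3 2 of the 12 were higher in Mst1KO: Fntb, a subunit of the farnesyl transferase, by 0.55, and Rabggta, a subunit of the geranylgeranyl transferase, by 0.38. The Fntb call was lost without any 1 array other than WT replicate 2 (adjusted p 0.0754 to 0.135), and the Rabggta call without any 1 array other than Mst1KO replicate 2 (0.0668 to 0.167).

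Fatty acid oxidation and mitosis gave the scale for the members. Of 22 genes of fatty acid oxidation 20 were tested, and from S2 to S3, 8 fell and 0 rose in WT (median -0.28), against 2 lower and 1 higher in Mst1KO (median -0.11). All 24 tested mitosis genes of 25 fell in WT (median -2.60) and in Mst1KO (median -1.78). The mean level of the mitosis genes per group went from 8.44 to 5.89 in WT and from 8.13 to 6.38 in Mst1KO. The mean of the 27 members went from 7.30 to 7.42 and from 7.27 to 7.38 across the same step. Opposite moves partly offset each other in this mean. In WT 16 members had a positive and 11 a negative difference (-0.51 to 0.72), and in Mst1KO 17 and 10 (-0.23 to 0.69). At S3, 3 mitosis genes were higher in Mst1KO and 0 lower.

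**Figure D5:**
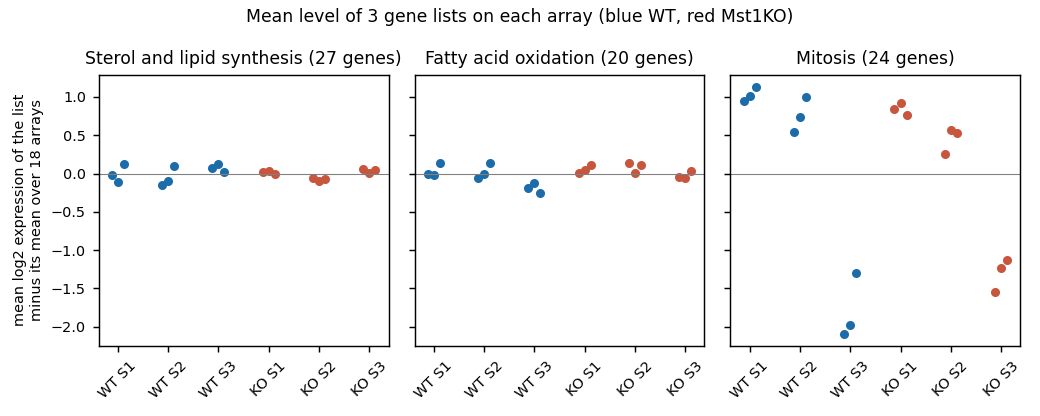
Mean log2 level of the 27 tested members, of 20 fatty acid oxidation genes and of 24 mitosis genes on each array, minus that list's mean over all 18 arrays, by stage and genotype. The mitosis genes drop from S2 to S3 in both genotypes. The average of the members stays near its mean (7.19 to 7.47 on the 18 arrays before that mean is taken off), and in it members that rose and fell partly offset each other.

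Markers listed for other cells moved in both directions across the same step as Insig1 and Srebf2. Whether the iNKT cells themselves or other cells gave these signals was not tested. Of 13 macrophage and dendritic cell markers 11 were tested, and from S2 to S3, 5 rose in WT and 6 in Mst1KO, with 0 lower in either. Of all genes, 10.4% were called higher in WT and 8.01% in Mst1KO. Their mean level per array ran from 5.63 to 5.76 at WT S2 and 6.47 to 6.63 at WT S3, and from 5.96 to 6.17 at Mst1KO S2 and 6.65 to 7.11 at Mst1KO S3. C1qb, a complement gene of macrophages, rose by 1.05 in WT and 1.31 in Mst1KO. Fcer1g, which NK cells also express and which is counted in the NK list below as well, rose by 3.18 and 2.86. Csf1r, a defining macrophage receptor, went from a mean of 4.89 to 5.17 in WT and from 5.17 to 5.54 in Mst1KO, near the array medians of 4.81 to 4.93. In Mst1KO 5 of these markers also rose from S1 to S2, where 6.67% of all genes were called in either direction. The mean of 4 NK and innate lymphoid markers went from 5.11 at S2 to 6.80 at S3 in WT and from 5.39 to 6.64 in Mst1KO. That of 7 conventional and immature thymocyte markers went from 6.81 to 6.52 and from 6.90 to 6.56. For B cells and for thymic epithelium only 1 marker was tested. The part of any of these markers in the members' changes was not tested. In sorted bulk samples, fewer cells of a type and less RNA per cell cannot be told apart.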

How the data were processed

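The authors summarised the arrays with RMA (Affymetrix Expression Console 1.1, according to the submitters' processing notes) and deposited 1 log2 value per probe set and array. The summary level and annotation are not given in the sources used here. RNA was amplified from small inputs with the NuGEN WTA Pico v2 kit, and thymocytes passed a CD8 microbead step before sorting, per the labels' protocols. Values ran from 1.46 to 13.5, array medians from 4.81 to 4.93, and replicate arrays of a group correlated at 0.976 to 0.986 over probe sets.

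The table held 41345 probe sets, of which 16010 had no symbol, 1814 had several and 23521 had 1. Only the last kind was used, the brightest stood for a gene, and a gene was kept when above its array's median on at least 3 arrays. limma 3.58.1 in R 4.3.3 fitted 6 group means to the 18 arrays, with Benjamini-Hochberg adjustment within each of 9 comparisons: 3 of genotype, 4 of adjacent stages and 2 interactions. The test was tried on simulated data. All members could be named, and of each other list up to 3 called genes with the lowest p in a comparison, or any listed gene with its values. The members and lists were chosen with earlier results of these data known. Promoter windows came from RefSeq for GRCm38.p6.

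Alternatives were dropping the filter or making it stricter (75th percentile), centring arrays on their medians, repeating quantile normalization, a robust fit with a variance trend, averaging a gene's probe sets, fitting only the groups compared, a replicate block, and omitting each array in turn. For genes of the other lists these were added after seeing the data. Replicate numbers were not taken as pairing the samples. Python 3.11.15 with pandas 2.3.3 and matplotlib 3.10.9 drew the figures.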

Additional observations from a re-analysis of the deposited data

How the results depend on the processing

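No member's direction reversed where it was called. For Mst1KO against WT at S3 the 1 member called became 0 with no filter, with repeated quantile normalization, with probe sets of a gene averaged, in a fit of only the groups compared and with the replicate block, 2 with a variance trend and robust fit, and 3 with the stricter filter, which tested 19 members among 7500 genes. For S2 to S3 in WT the 7 members became 2 in a fit of only the groups compared. For S1 to S2 in Mst1KO the 1 member became 0 with no filter, with only the groups compared and with the replicate block. Leaving out 1 array gave 0 to 0 members at S1, 0 to 1 at S2 and 0 to 1 at S3 between genotypes, 0 to 1 for S1 to S2 and 2 to 6 for S2 to S3 in WT, 0 to 0 and 0 to 3 for these steps in Mst1KO, and 0 for both interactions. Over all genes, a fit of only the groups compared called 5, 4 and 184 genes between genotypes at S1, S2 and S3 against 43, 152 and 443, and 195 and 2037 against 501 and 3073 for the WT steps. The S1 count was 28 with no filter, 93 with the stricter filter, 26 after centring and 128 with the variance trend, the S2 count was 248 with that trend, and the S2 to S3 interaction was 15 against 48 with only the groups compared. Leaving out 1 array gave 9 to 23, 39 to 160 and 200 to 369 calls at the 3 stages. The share of higher calls at S3 was 69.1%, 57.1% after repeated quantile normalization and 45.2% after centring; for S2 to S3 in WT it was 44.1% and 55.3% after centring, in Mst1KO 46.6% and 36% after quantile normalization, and at S1 79.1% and 61.5% after centring. Sqle, Cyp51 and Lss fell below the array median on some arrays, where signal over background is low. With the replicate block, the calls of Pmvk in WT and Srebf2 in Mst1KO from S2 to S3, of Fasn from S1 to S2 in Mst1KO and of Scap at S3 were lost (limma adjusted p = 0.0713, 0.0501, 0.0568 and 0.0569), and no other member call changed. Deviations of same-numbered arrays correlated at -0.05 to 0.21 between stages (median 0.06, above 0.1 in 3 of 18 pairs) and above 0.1 in 0 of 9 pairs between genotypes. Arrays of different number gave a median of -0.02 between stages, above 0.1 in 0 of 36 pairs. The deviations of the 3 arrays of a group sum to 0. The values for different numbers are thus tied to those for the same number and give no separate baseline. The highest same-number values between stages included those of WT S1 and S2 (0.09, 0.14 and 0.21). Whether the numbers pair the samples was not settled, and the main fit used no pairing.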
